A study of Mus musculus with 16 samples.

Results

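A set of genes that the canonical Wnt pathway is known to switch on was followed in the prefrontal cortex of mice with floxed alleles of Apc, β-catenin (β-cat) or both. They are Axin2, Nkd1, Notum, Apcdd1, Rnf43, Znrf3, Lgr5, Sp5, Ccnd1 and Myc, chosen by name as 10 of the 23284 genes in the deposited table, and each had a value in all 16 libraries. The libraries were polyA RNA of freshly dissected prefrontal cortex, 4 from each of 4 genotypes, read on the FPKM scale (fragments per kilobase of transcript, scaled to the mapped fragments of the library). APC cKO mice carried APC fl/fl, which removes the main negative regulator of β-cat. β-cat cOE mice carried ctnnb1 fl(ex3)/+, which leaves a stable β-cat without its degradation domain. APC/β-cat cKO mice carried floxed alleles of both genes. In all 3 lines CamKIIα-Cre cut the floxed alleles, mainly in excitatory neurons of the forebrain, while the tissue sequenced also held glia, vessels and inhibitory neurons with intact alleles. Controls were littermates without Cre, pooled from these lines, so that Cre itself and the floxed genes differed together between lines and controls. The mice were 2 to 3 months old and of both sexes. By the level of Xist, control replicate 1 and APC cKO replicate 1 were taken as female and the other 14 libraries as male.

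In cells without a Wnt signal, a destruction complex built on Apc and Axin marks β-cat for degradation. When the complex is blocked, β-cat enters the nucleus, binds TCF/LEF factors and switches on target genes, many of which feed back on the pathway. Axin2 rebuilds the destruction complex, Nkd1 binds Dishevelled, Notum strips a lipid from secreted Wnt, Apcdd1 blocks Wnt at the membrane, and Rnf43 and Znrf3 are ubiquitin ligases that remove Frizzled receptors. Lgr5 is a receptor for R-spondins, which protect Frizzled from those ligases. Sp5 is a transcription factor, and Ccnd1 and Myc drive cell division in many tissues. In the adult brain Axin2 is a common readout of canonical Wnt activity.

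All 10 are protein-coding genes. In the mm10 coordinates of the file, 4 of them lie on chromosome 11. These are Axin2 from 108920349 to 108950781, Notum from 120653789 to 120660837, Rnf43 from 87663087 to 87735539 and Znrf3 from 5276329 to 5444847. Sp5 lies on chromosome 2 from 70474923 to 70477726, and Nkd1 on chromosome 8 from 88521344 to 88594887. Lgr5 lies on chromosome 10 from 115450314 to 115587780, Ccnd1 on chromosome 7 from 144929931 to 144939925 and Myc on chromosome 15 from 61985341 to 61990361.

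The sequences before the starts of Sp5 and Axin2 are shown because these were the feedback genes whose APC cKO libraries separated from another genotype. Each is the 250 bases before the annotated start, on the plus strand of GRCm38.p6, from RefSeq, at chr2:70474673-70474922 for Sp5 and chr11:108920099-108920348 for Axin2. Capitals mark the TCF/LEF letters CTTTGNN, where each N is A or T, searched on both strands.
Sp5: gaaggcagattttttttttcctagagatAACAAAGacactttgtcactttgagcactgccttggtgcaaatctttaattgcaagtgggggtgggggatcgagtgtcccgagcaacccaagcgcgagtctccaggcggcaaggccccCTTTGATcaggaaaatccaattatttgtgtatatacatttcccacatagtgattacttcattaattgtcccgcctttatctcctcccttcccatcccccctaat
Axin2: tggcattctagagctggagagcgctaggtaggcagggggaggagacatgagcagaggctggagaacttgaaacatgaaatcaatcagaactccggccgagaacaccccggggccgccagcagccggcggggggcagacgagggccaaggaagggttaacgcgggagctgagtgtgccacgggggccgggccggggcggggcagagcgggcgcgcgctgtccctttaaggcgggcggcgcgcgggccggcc
The Sp5 window held 2 matches, AACAAAG, the minus strand form, starting 222 bases before the start and CTTTGAT starting 104 bases before it. The Axin2 window, with a GC content of 69.2% against 46% for Sp5, held 0. Windows of 300 bases were given for 4 of the 10 genes (Axin2, Nkd1, Sp5 and Rnf43, the last with 2 starts), and those of Nkd1 and Rnf43 held no match either. Of all 32851 windows of this length, 16.9% held at least 1 match. A match is a run of letters, and whether a factor binds there was not measured.

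The targeted gene was read first. Apc was at 40.8 to 50.1 FPKM in controls and 38.8 to 49.5 FPKM in β-cat cOEs, and at 7.85 to 17.1 FPKM in APC cKOs and 6.80 to 12.2 FPKM in APC/β-cat cKOs. The latter 2 ranges lay wholly below the former 2, as the labels say. Ctnnb1, the gene of β-cat, was at 155.5 to 165.8 FPKM in controls, 157.3 to 182 FPKM in APC cKOs, 155.3 to 165.8 FPKM in β-cat cOEs and 150.9 to 156.7 FPKM in APC/β-cat cKOs (log2 difference of the last from controls -0.05, limma adjusted p = 0.643). In a gene total, the loss of some exons need not show, so these values do not check the ctnnb1 alleles. Markers of excitatory neurons were high in every library (6 genes, summed 1088 to 1401 FPKM). Markers of neighboring regions varied between libraries within each genotype. The 4 olfactory bulb markers summed to 6.95 to 163.4 FPKM and the 6 striatal markers to 58.6 to 374.8 FPKM. In bulk tissue, fewer cells of a type and less RNA per cell cannot be told apart.

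Across all 16 libraries the highest mean levels were those of Ccnd1 (13.3 FPKM) and Apcdd1 (13.1 FPKM), which exceeded 57.4% and 57.1% of the 13978 genes tested. Axin2 followed at 5.98 FPKM. Lgr5, Nkd1, Znrf3, Notum and Myc lay between 1.30 and 2.62 FPKM. Rnf43 (0.42 FPKM) and Sp5 (0.21 FPKM) were below the mean of 0.5 FPKM required for the test across genes, so 8 of the 10 were tested. Sp5 was listed at 0 in 1 library, APC/β-cat cKO replicate 4.

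**Figure D1:**
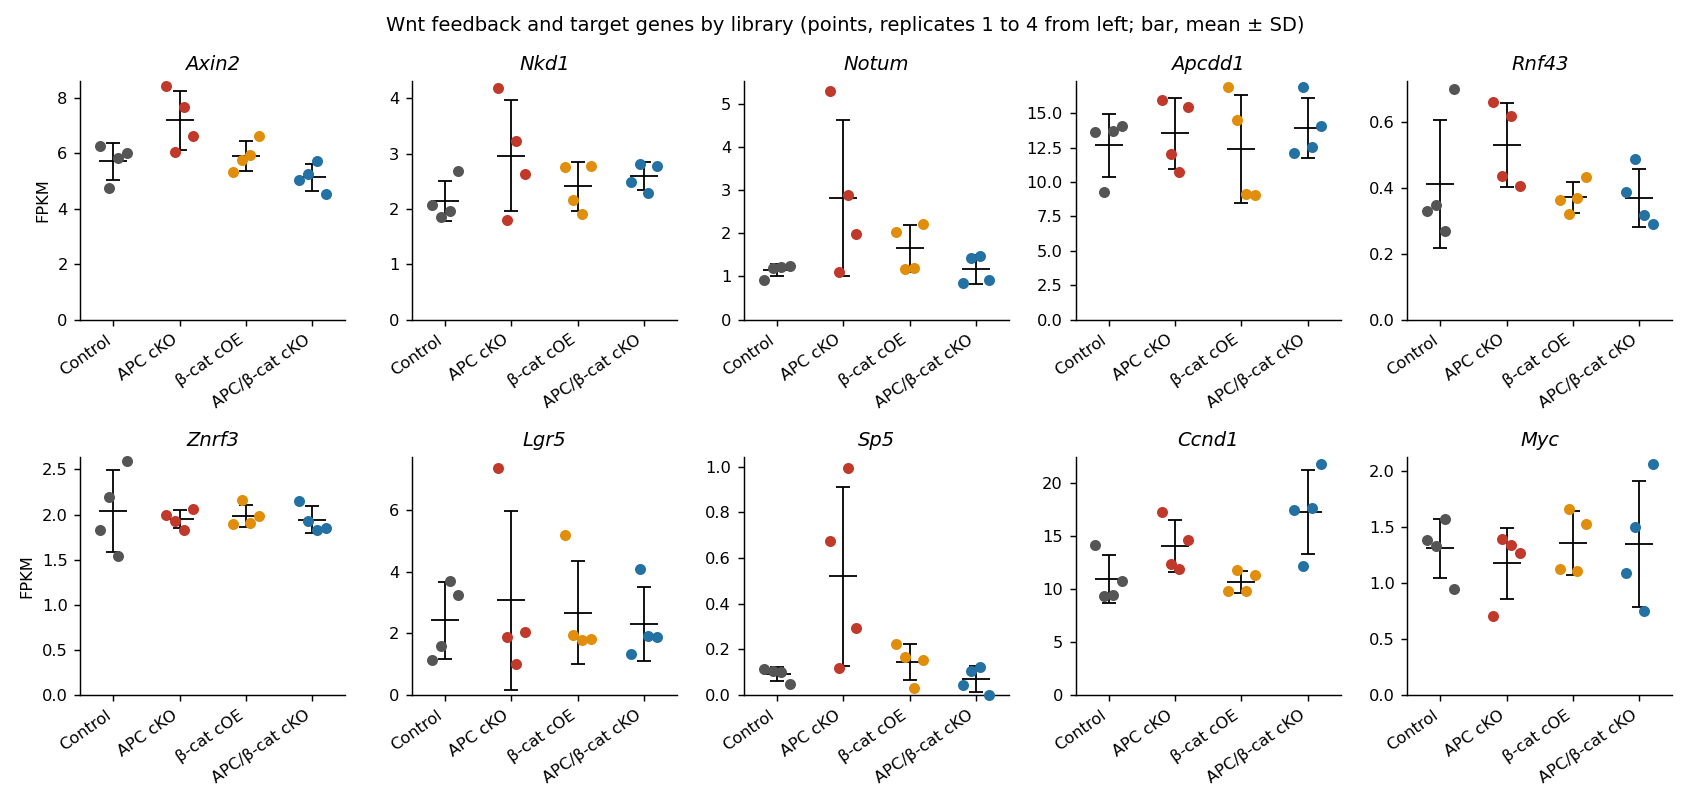
Level of each of the 10 genes (y axis, FPKM, from 0) in every library of the 4 genotypes (x axis). Points are libraries, and the black bar is the mean ± SD of 4. In the panels of Axin2, Nkd1, Notum and Sp5 the second APC cKO point lies lowest of its genotype, for example 1.11 FPKM for Notum against 1.98 to 5.31 FPKM in the other 3.

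The first comparison asked what loss of Apc did to these genes. All comparisons with control below share the same 4 control libraries. In APC cKOs the levels of Axin2, Rnf43, Ccnd1, Nkd1, Notum and Sp5 had higher means than in controls. On the log2(FPKM + 0.1) scale they ran from 1.25-fold for Axin2 to 2.72-fold for Sp5. Lgr5 and Apcdd1 were each 1.07-fold, Znrf3 0.976-fold and Myc 0.892-fold. With limma on log2(FPKM + 0.1) and Benjamini-Hochberg adjustment over all genes tested, 0 of the 8 tested genes passed an adjusted p of 0.05, where 0.0429% of all genes did. At an unadjusted p under 0.05, 3 of 8 passed (Axin2, Notum and Ccnd1), all higher, where 4.82% of all genes passed as higher and 5.19% as lower. The median log2 change of the 8 was 0.21, against -0.004 over all genes tested.

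Axin2 is the scaffold of the destruction complex whose own transcription rises with β-cat signaling. It was at 6.26, 4.75, 5.81 and 6.01 FPKM in control replicates 1 to 4 and at 8.40, 6.03, 7.65 and 6.61 FPKM in those of APC cKOs. In 3 of 4 APC cKO libraries the level was above every control, and replicate 2 lay among the controls. The log2 difference was 0.32 (standard error 0.11, 95% interval 0.08 to 0.56, limma adjusted p = 0.371, exact permutation test p = 0.0571). Exact tests here are two-sided and unadjusted, and with 4 against 4 libraries they cannot go below 0.0286.

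In β-cat cOEs Axin2 was at 5.33, 5.75, 5.91 and 6.63 FPKM, and in APC/β-cat cKOs at 5.02, 5.25, 5.70 and 4.52 FPKM. All 4 APC cKO libraries therefore lay above all 4 APC/β-cat cKO libraries, which carry floxed Apc and floxed ctnnb1. Such separation held for 2.06% of the tested genes in this direction. That difference was 0.47 on the log2 scale (standard error 0.11, 95% interval 0.23 to 0.71, limma adjusted p = 0.129, exact permutation test p = 0.0286). By mean level the order was APC cKO (mean 7.17 ± 1.06 FPKM), β-cat cOE (mean 5.91 ± 0.54 FPKM), control (mean 5.71 ± 0.66 FPKM) and APC/β-cat cKO (mean 5.12 ± 0.49 FPKM; SD, n = 4 each). Neighbors in this order overlapped, with exact permutation p of 0.0857, 0.657 and 0.257.

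Notum, a secreted enzyme that inactivates Wnt ligands, ranged from 0.84 to 5.31 FPKM over all libraries. It was at 0.93, 1.21, 1.22 and 1.24 FPKM in controls and at 5.31, 1.11, 2.88 and 1.98 FPKM in APC cKOs. Again 3 APC cKO libraries lay above all controls and replicate 2 did not. The log2 difference was 1.02 (standard error 0.35, 95% interval 0.28 to 1.77, limma adjusted p = 0.358, exact permutation test p = 0.114). In β-cat cOEs it was at 2.04, 1.18, 1.19 and 2.21 FPKM, where replicates 1 and 4 stood above all controls and the other 2 among them. In APC/β-cat cKOs it was at 0.84, 1.43, 1.47 and 0.92 FPKM, 2 libraries below and 2 above the control range.

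Sp5, a zinc finger factor that acts in a loop with TCF/LEF, was near the lower end of what these libraries showed. It was at 0.12, 0.10, 0.10 and 0.05 FPKM in controls and at 0.68, 0.12, 0.99 and 0.29 FPKM in APC cKOs. The groups did not overlap, which held for 2.49% of the tested genes in this direction, but APC cKO replicate 2 (0.1183 FPKM) was above the highest control (0.1164 FPKM) by very little. The log2 difference was 1.44 (exact permutation test p = 0.0286), and in a fit without the filter on low values the limma adjusted p was 0.338. Without any 1 control library the log2 difference was 1.325 to 1.501, with an exact permutation p of 0.0571. In β-cat cOEs Sp5 was at 0.22, 0.17, 0.03 and 0.15 FPKM, 3 libraries above all controls and 1 below (exact permutation test p = 0.371). Without replicate 3, the 1 below, the exact permutation p was 0.0286. That is the smallest this test can give with 3 against 4 libraries, and dropping that library fixed it in advance. In APC/β-cat cKOs it was at 0.05, 0.11, 0.12 and 0.00 FPKM, overlapping the controls.

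Nkd1, an inhibitor that acts on Dishevelled, was at 2.07, 1.86, 1.96 and 2.68 FPKM in controls and at 4.19, 1.80, 3.24 and 2.63 FPKM in APC cKOs. Its spread in APC cKOs was wide, with replicates 1 and 3 above every control and replicate 2 below every control (log2 difference 0.40, 95% interval -0.03 to 0.84, limma adjusted p = 0.531). The β-cat cOE libraries were at 1.91 to 2.78 FPKM and the APC/β-cat cKO libraries at 2.29 to 2.82 FPKM. These 2 ranges overlapped each other and the controls.

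APC cKO replicate 2 was thus the lowest library of its genotype for Axin2, Nkd1, Notum and Sp5. Without it, the log2 differences from control were 0.40 for Axin2, 0.61 for Nkd1, 1.38 for Notum and 1.86 for Sp5. The limma adjusted p of the first 3 was 0.183, 0.179 and 0.115, so that no call changed. Leaving out the lowest library had to raise these differences, and they were the highest with any 1 library left out. The lowest were 0.237 for Axin2 without control replicate 2 and 1.084 for Sp5 without APC cKO replicate 3. Without APC cKO replicate 1 they were 0.220 for Nkd1 and 0.659 for Notum. Markers of other cells differed in the same libraries. The summed level of 4 dividing-cell genes (Mki67, Top2a, Cdk1 and Ccnb1) was 2.59, 1.08, 3.14 and 2.47 FPKM in APC cKO replicates 1 to 4, against 0.63 to 0.88 FPKM in controls. It was 0.83 to 2.23 FPKM in β-cat cOE mice and 1.02 to 1.2 FPKM in APC/β-cat cKOs. These genes were low, and Top2a had the highest mean of them, 0.998 FPKM in APC cKOs and 0.33 FPKM in controls. The means in the same order were 0.33 and 0.17 FPKM for Mki67, 0.38 and 0.10 FPKM for Cdk1 and 0.61 and 0.14 FPKM for Ccnb1. Of single genes tested, 2.49% had every APC cKO library above every control, and no such share was taken for sums. The summed level of 6 neuroblast genes (Dcx, Sox11, Dlx1, Dlx2, Cd24a and Sp8) was 89.4, 23.0, 41.5 and 42.4 FPKM in the APC cKOs. It was 17.98 to 42.99 FPKM in controls, 24 to 59.5 FPKM in β-cat cOE mice and 19.9 to 57.0 FPKM in APC/β-cat cKOs. In each genotype the library highest in neuroblast genes was also the highest in olfactory bulb markers. These were control replicate 3, APC cKO replicate 1, β-cat cOE replicate 1 and APC/β-cat cKO replicate 2. Whether the neuroblast and olfactory bulb lists mark the same tissue was not tested. Dcx is among the genes the study selected on these libraries. Replicate 2 was again the lowest APC cKO library on the dividing-cell and neuroblast lists. The excitatory neuron markers ran the other way, at 1112, 1380, 1088 and 1333 FPKM in APC cKO replicates 1 to 4 and 1249 to 1333 FPKM in controls. Over the 16 libraries, Pearson's r with these markers on the log2 scale was -0.471 for Axin2, -0.835 for Nkd1, -0.753 for Notum and -0.653 for Sp5. With the neuroblast genes it was 0.486, 0.733, 0.804 and 0.587 in the same order. Spearman's rho in that order was -0.218, -0.856, -0.700 and -0.447 with the excitatory markers. With the neuroblast genes it was 0.291, 0.641, 0.779 and 0.515. For Axin2, r was larger in size with dividing-cell (0.655), oligodendrocyte (-0.634), inhibitory neuron (-0.617) and leptomeningeal (0.537) markers. These values are given as a description because the libraries may differ in dissection and depth. The part of these cells in the levels of the 4 genes was not tested.

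**Figure D2:**
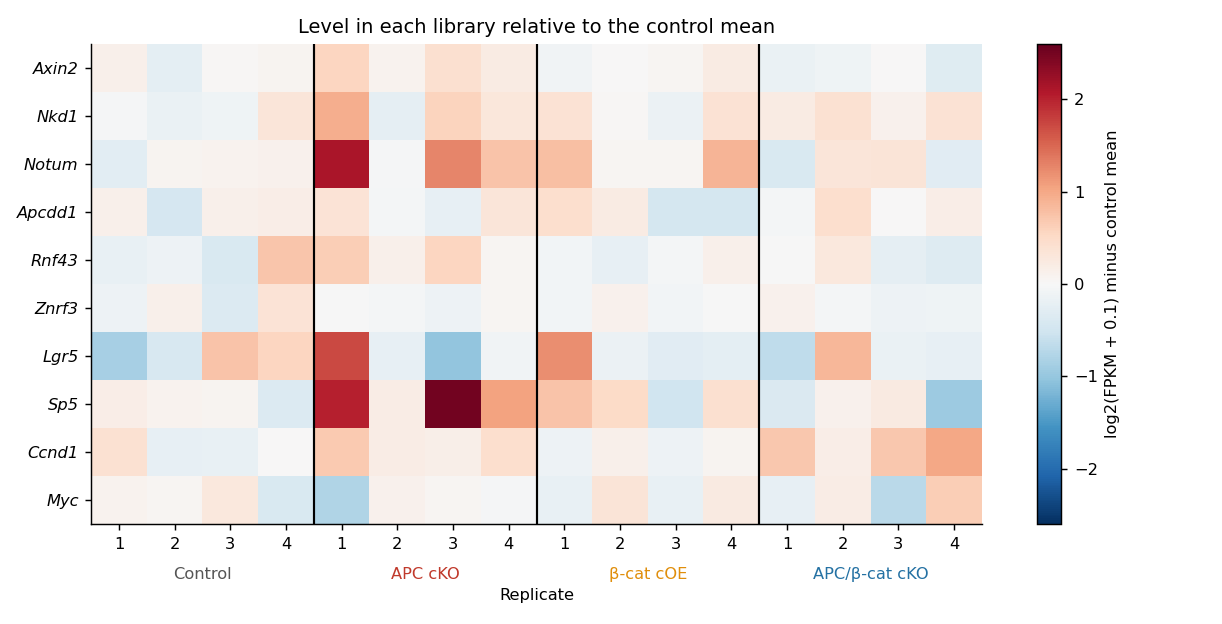
Level of each gene (rows) in each library (columns, replicates 1 to 4 of each genotype) as log2(FPKM + 0.1) minus the mean of the 4 controls. Red is higher and blue lower, up to 2.52 for Sp5 in APC cKO replicate 3. Red cells in the Nkd1, Notum and Sp5 rows are deepest in APC cKO replicates 1 and 3, and the Ccnd1 row is red in all 4 APC/β-cat cKO libraries, by 0.17 to 1.01.

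The other feedback inhibitors overlapped the controls in every line. Rnf43 was at 0.33, 0.35, 0.27 and 0.70 FPKM in controls and at 0.66, 0.43, 0.62 and 0.40 FPKM in APC cKOs (log2 difference 0.35, exact permutation test p = 0.229). Control replicate 4 was above every other library, so no group separated from controls. Znrf3, its close relative, had means of 1.94 to 2.04 FPKM in all 4 genotypes. The 95% interval of its log2 change was -0.32 to 0.25 in APC cKOs, -0.29 to 0.27 in β-cat cOE mice and -0.32 to 0.24 in APC/β-cat cKOs. Its widest spread was among the controls (1.54 to 2.59 FPKM). Apcdd1, which lies on chromosome 18 as the targeted Apc does, was at 9.26 to 14.1 FPKM in controls, 10.7 to 15.99 FPKM in APC cKOs, 9.07 to 16.9 FPKM in β-cat cOE mice and 12.1 to 16.9 FPKM in APC/β-cat cKOs. All 4 ranges overlapped, and the largest of its 3 changes from control was 0.14 on the log2 scale, in APC/β-cat cKOs (95% interval -0.29 to 0.57, limma adjusted p = 0.781).

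Lgr5, the R-spondin receptor, varied more within genotypes than between them. It was at 1.15, 1.60, 3.70 and 3.25 FPKM in controls, 7.35, 1.88, 1.02 and 2.03 FPKM in APC cKOs, 5.17, 1.94, 1.77 and 1.81 FPKM in β-cat cOE mice and 1.34, 4.07, 1.92 and 1.87 FPKM in APC/β-cat cKOs. Single high libraries therefore appeared in every line. The log2 differences from control were 0.09, 0.13 and -0.04, with standard errors of 0.53. The difference in APC cKOs became -0.44 without replicate 1 and that in β-cat cOEs -0.23 without replicate 1, and both also turned negative without control replicate 1 or 2, so neither direction was stable.

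The libraries high in Lgr5 were those with the most olfactory bulb marker RNA. The summed level of Tbx21, Cdhr1, Eomes and Doc2g was 163.4 FPKM in β-cat cOE replicate 1, 153.6 FPKM in APC cKO replicate 1, 114.6 FPKM in APC/β-cat cKO replicate 2, 100.1 FPKM in control replicate 3 and 71.1 FPKM in control replicate 4. The same 5 libraries held the 5 highest Lgr5 levels, from 3.25 to 7.35 FPKM. In the other 11 libraries the markers summed to at most 43.7 FPKM and Lgr5 was at most 2.03 FPKM. Over the 16 libraries Pearson's r between both, on the log2 scale, was 0.95 and Spearman's rho 0.94, given as a description because dissection and depth are shared within a library. For the other 9 genes the r with these markers lay between -0.24 and 0.61. Whether olfactory bulb tissue set the Lgr5 level was not tested.

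**Figure D3:**
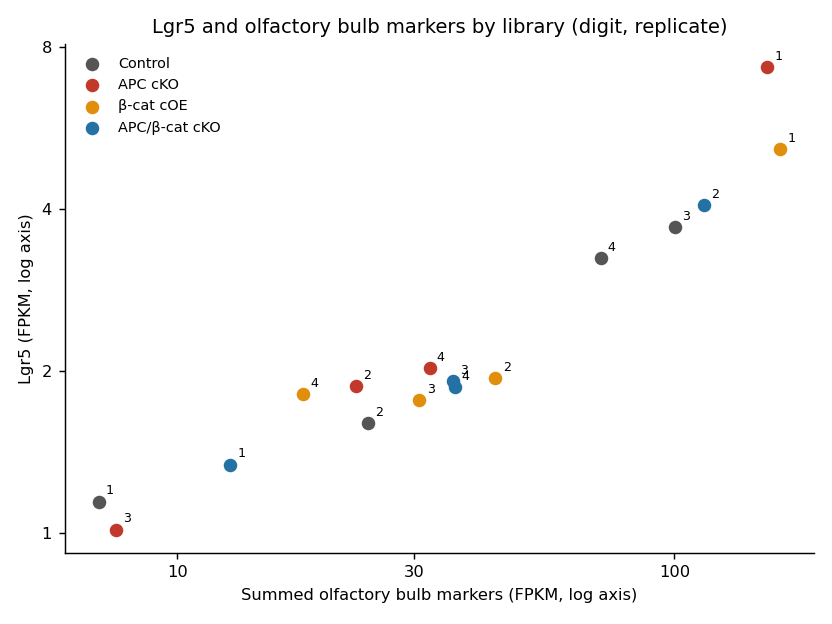
Lgr5 (y axis, FPKM, log axis) against the summed level of 4 olfactory bulb markers (x axis, FPKM, log axis) in the 16 libraries, colored by genotype, with the replicate as a digit. The 5 libraries above 71 FPKM of markers come from all 4 genotypes and are the 5 with Lgr5 above 3 FPKM.

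Ccnd1, which encodes cyclin D1, had the smallest p of the 8 tested genes in APC/β-cat cKOs. It was at 14.2, 9.33, 9.50 and 10.8 FPKM in controls and at 17.5, 12.2, 17.7 and 21.9 FPKM in APC/β-cat cKOs. In 3 of 4 APC/β-cat cKO libraries it was above every control. The log2 difference was 0.64 (standard error 0.17, 95% interval 0.29 to 1.001, limma adjusted p = 0.168, exact permutation test p = 0.0571). With sex as a covariate the difference was 0.76 and the limma adjusted p 0.0383, a fit that called 0.351% of all genes against 0.207% without the covariate. The female library was the highest of its genotype for Ccnd1 in controls and in APC cKOs.

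In APC cKOs Ccnd1 was at 17.3, 12.4, 11.96 and 14.6 FPKM, and in β-cat cOEs at 9.85, 11.8, 9.82 and 11.4 FPKM. All β-cat cOE libraries lay below all APC cKO and all APC/β-cat cKO libraries. Both lines with floxed Apc thus had higher Ccnd1 than the line with stabilized β-cat. The difference of β-cat cOEs from APC/β-cat cKOs was -0.66 on the log2 scale (95% interval -1.02 to -0.31, limma adjusted p = 0.130, exact permutation test p = 0.0286), and that of APC cKOs from β-cat cOEs was 0.38 (95% interval 0.02 to 0.73, limma adjusted p = 0.619, exact permutation test p = 0.0286). Groups that did not overlap in these directions made up 3.93% and 2.58% of the genes tested. Oligodendrocyte precursor markers (4 genes) summed to 28.3 to 32.8 FPKM in APC/β-cat cKOs, above the 25.0 to 27.2 FPKM of controls, to 25.1 to 38.5 FPKM in APC cKOs and to 25.97 to 33.6 FPKM in β-cat cOEs. Of the 4, Lhfpl3 had means of 14.4 FPKM in APC/β-cat cKOs and 10.8 FPKM in controls, C1ql1 of 5.95 and 4.94 FPKM, Cspg4 of 1.48 and 1.34 FPKM, and Pdgfra, lower, of 8.164 and 8.997 FPKM. Of the 4, Lhfpl3 alone lay apart from controls, at 12.6 to 15.8 FPKM against 9.78 to 11.9 FPKM. Over the 16 libraries Pearson's r of Ccnd1 on the log2 scale was 0.419 with this list. It was -0.432 with astrocyte and -0.429 with endothelial markers. The part of these cells in the Ccnd1 level was not tested.

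Myc, a transcription factor for growth genes, was low everywhere, at 0.95 to 1.57 FPKM in controls, 0.70 to 1.39 FPKM in APC cKOs, 1.11 to 1.66 FPKM in β-cat cOE mice and 0.75 to 2.06 FPKM in APC/β-cat cKOs. Its log2 changes from control were -0.16, 0.05 and -0.02, and each 95% interval reached at least 0.41 in both directions. Changes of Myc up to that size could not be told from the spread of these libraries.

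The second comparison asked what stabilized β-cat did without loss of Apc. In β-cat cOEs 0 of the 8 tested genes passed an adjusted p of 0.05 (0.0143% of all genes did), and 0 passed an unadjusted p under 0.05 (5.07% of all genes did). The median log2 change of the 8 was 0.05, against -0.004 over all genes. Notum had the largest difference, 0.44 (95% interval -0.30 to 1.19, limma adjusted p = 0.950). The interval for Axin2 was -0.19 to 0.29, so a change as large as the 0.32 seen in APC cKOs lay outside it. The direct difference of APC cKOs from β-cat cOEs in Axin2 was 0.27 (95% interval 0.03 to 0.51, limma adjusted p = 0.597, exact permutation test p = 0.0857). Between these 2 lines, 0 of 8 genes passed an adjusted p of 0.05 (0.0429% of all genes) and 2 passed an unadjusted p under 0.05, Axin2 and Ccnd1 (7.57% of all genes).

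In the third line, APC/β-cat cKO, 0 of 8 genes passed an adjusted p of 0.05 against controls (0.207% of all genes did) and 1 of 8, Ccnd1, passed an unadjusted p under 0.05 (14.2% of all genes did). The median log2 change of the 8 was -0.02. Against this line, APC cKOs had 0 genes at an adjusted p of 0.05 (0.215% of all genes) and 2 at an unadjusted p under 0.05, Axin2 and Notum (10.3% of all genes). Notum differed by 1.03 (95% interval 0.29 to 1.78, limma adjusted p = 0.313). Against the same line, β-cat cOEs had 0 genes at an adjusted p of 0.05 (0.229% of all genes) and Ccnd1 at an unadjusted p under 0.05, 1 of 8 (11.9% of all genes).

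**Figure D4:**
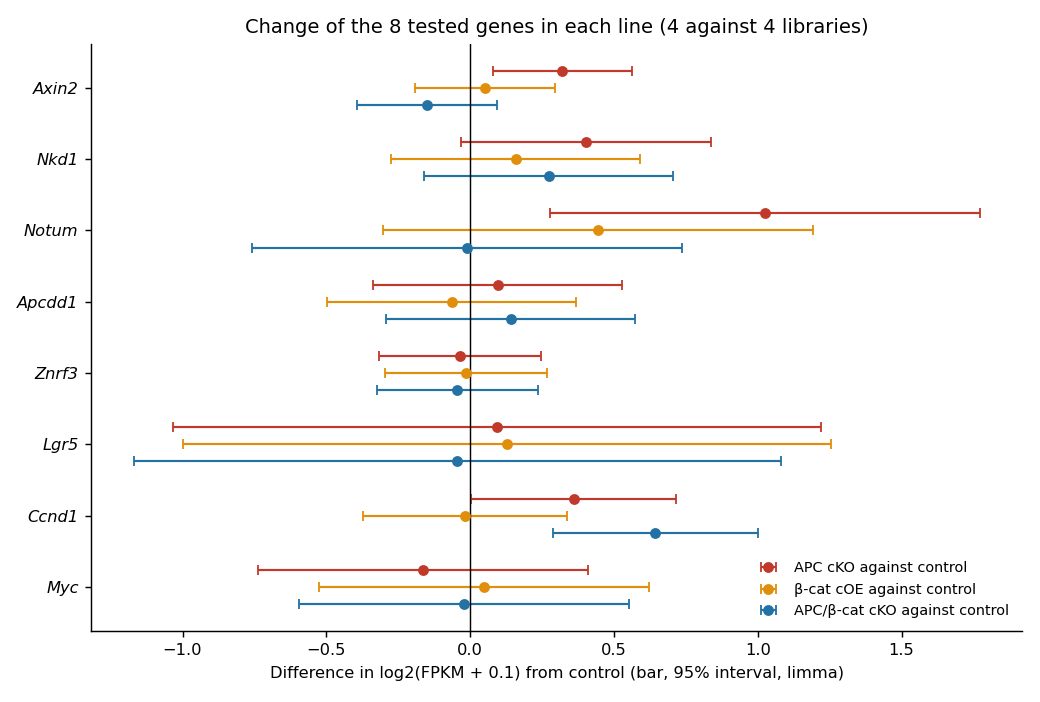
Difference of each line from control for the 8 tested genes (x axis, log2(FPKM + 0.1); points, limma estimates; bars, 95% intervals). The intervals that leave out 0 are those of Axin2, Notum and Ccnd1 in APC cKOs and of Ccnd1 in APC/β-cat cKOs, and no adjusted p was under 0.05.

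With the 8 libraries of raised β-cat (APC cKO and β-cat cOE) set against the other 8, Axin2 had a mean of 6.54 against 5.41 FPKM (log2 difference 0.26, standard error 0.08, limma adjusted p = 0.382, exact permutation test p = 0.0159). Notum had 2.24 against 1.16 FPKM (0.74, standard error 0.25, limma adjusted p = 0.394, exact permutation test p = 0.0126). Sp5 had 0.33 against 0.08 FPKM (0.98, exact permutation test p = 0.0138). Above the highest of the other 8 libraries lay 4 of 8 raised libraries for Axin2, 5 of 8 for Notum and 6 of 8 for Sp5. Of these, 3 were APC cKOs for each gene, and 1, 2 and 3 were β-cat cOEs. The exact tests here shuffled libraries across all 4 genotypes. For β-cat cOEs alone against controls, the exact permutation p was 0.657 for Axin2, 0.286 for Notum and 0.371 for Sp5. For the remaining 7 genes the exact permutation p was 0.293 or more. At an adjusted p of 0.05, 0 of 8 tested genes passed (0.0572% of all genes), and at an unadjusted p under 0.05, 2 did (8.84% of all genes). With the 5 libraries of most olfactory bulb RNA left out, the exact permutation p for Sp5 was 0.104. In the limma F test for any difference among the 4 genotypes, 0 of 8 passed an adjusted p of 0.05 (0.250% of all genes), and the smallest p among the 8 were those of Ccnd1 (adjusted p = 0.202), Axin2 (adjusted p = 0.241) and Notum (adjusted p = 0.377).

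The genes whose levels ran most like each member were found by Pearson's r on log2(FPKM + 0.1) over the 16 libraries, and are given as a description. For Axin2 they were Fubp1 (r = 0.88), Ctsc (0.84), Fbln1 (0.83), Ift80 (0.82) and Lman2l (0.81). For Notum they were Zic2 (0.92), Cdca7 (0.91) and Cd24a (0.91), and for Nkd1 Cxcr4 (0.87), Peli2 (0.85) and Sox11 (0.84). Cd24a and Sox11 are in the list of neuroblast genes above. Lgr5 ran with Grip2, Gng4 and Inpp5j (each 0.98). Ccnd1 ran with Coq7 (0.86), 1110005A03Rik (0.84) and Mgat5b (0.83), and Apcdd1 with Pofut1 (0.83), Gins3 (0.82) and Ajap1 (0.81). Znrf3 ran with Lrig2 (0.79), Cryga (0.76) and Nfia (0.75), and Myc with Tmem50a (0.79), Vps16 (0.78) and Galk2 (0.77). With the genotype means removed, the r of these pairs ran from 0.54, for Fbln1 with Axin2 and Mgat5b with Ccnd1, to 0.99 for Gng4 with Lgr5.

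Few other genes of the pathway were called. Over all genes tested the median log2 change from control was -0.004 in APC cKOs, -0.004 for the β-cat cOE line and 0.003 for the line with both floxed genes. Of 40 other Wnt target genes 27 were tested, and against controls 0 were called in APC cKO mice, 0 in β-cat cOE mice and 1 in APC/β-cat cKOs. The 1 was Jun, a subunit of AP-1, at 13.5 to 15.0 FPKM in controls and 18.6 to 20.2 FPKM in APC/β-cat cKOs (log2 difference 0.46, limma adjusted p = 0.0245). It was at 14.8 to 20.4 FPKM in APC cKOs (adjusted p = 0.204) and 17.2 to 18.4 FPKM in β-cat cOEs (adjusted p = 0.945), so its mean was above that of controls in all 3 Cre lines. The medians of this list were 0.09, -0.02 and -0.01 on the log2 scale in the same order. At an unadjusted p under 0.05 it had 2 genes higher and 2 lower in APC cKOs (4.82% and 5.19% of all genes). It had 1 higher and 2 lower in β-cat cOEs (5.07% of all genes in either direction). In APC/β-cat cKOs it had 2 higher and 1 lower (14.2% of all genes in either direction). Id2, an inhibitor of differentiation, was the other gene of this list with the smallest F test p, at 98.3 ± 10.3 FPKM in controls and 122 ± 15.0 FPKM in the APC/β-cat cKO line (SD, n = 4; limma adjusted p = 0.207).

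Among 9 genes of the destruction complex and β-cat, Apc fell in the 2 lines in which it was floxed and no other gene was called against controls. Btrc, which recognizes phosphorylated β-cat, had means of 26.2 FPKM in controls, 23.4 FPKM in APC cKOs and 22.8 FPKM in APC/β-cat cKOs (limma adjusted p = 0.468 and 0.281). Of 5 tested R-spondin and LGR genes, of 14 Wnt receptor and Dishevelled genes and of 10 nuclear partners of β-cat, 0 were called against controls in any line. At an unadjusted p under 0.05, the receptor list had 3, 1 and 1 genes higher in the 3 lines, the R-spondin list 1 lower in β-cat cOEs and the nuclear list 2 lower in the third line. The destruction complex list, Apc included, had 2 lower in APC cKOs and 4 lower in the third line. Those with the smallest F test p were Rspo2 and Rspo3, Fzd6 and Fzd8, and Pygo1 and Tle4. Fzd6 had means of 1.29 FPKM in controls and 1.95 FPKM in APC cKOs (limma adjusted p = 0.367), and Fzd8 of 1.13 FPKM in controls and 1.51 FPKM in β-cat cOEs (adjusted p = 0.945). Rspo2 had 12.9 FPKM in controls and 9.79 FPKM in β-cat cOEs (adjusted p = 0.945).

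Of 11 secreted Wnt antagonists 7 were tested, with medians of 0.29, 0.08 and -0.21 on the log2 scale in the same order of lines against controls, and 0 were called against controls. At an unadjusted p under 0.05, 3 were higher and 1 lower in APC cKOs (4.82% and 5.19% of all genes). In β-cat cOEs 1 was lower and in the third line 0 passed (5.07% and 14.2% of all genes in either direction). Sfrp1, which binds Wnt outside the cell, was at 9.38 to 13.9 FPKM in APC cKOs. That was above all libraries of controls (5.15 to 9.21 FPKM), of β-cat cOEs (4.82 to 7.89 FPKM) and of APC/β-cat cKOs (4.63 to 6.82 FPKM). Such separation held for 2.49%, 2.58% and 2.06% of the genes tested in these directions. In β-cat cOEs Sfrp1 differed from controls by -0.22 on the log2 scale (limma adjusted p = 0.950). It was higher in APC cKOs than in APC/β-cat cKOs by 0.995 on the log2 scale (limma adjusted p = 0.0396), and its difference from controls was 0.78 (adjusted p = 0.248). Wif1, another secreted Wnt inhibitor, was at 1.14 to 7.12 FPKM in APC cKOs and 0.46 to 1.10 FPKM in controls (log2 difference 1.79, limma adjusted p = 0.310).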

How the data were processed

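The authors sequenced paired-end TruSeq stranded mRNA libraries of 16 samples, mapped the reads to mm10 and made expression values, for which their processing notes name TopHat2 2.0.10 and Cuffdiff 2.1.1. The deposited values were taken as log2(FPKM + 1), with base and offset (1) inferred from the values, and converted to FPKM. Without fragment counts the depth is unknown. Its stand-in here is how many genes each library lists at 0 (5726 to 6649). All value columns were used.

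Libraries were grouped by genotype label. The 13978 genes (of 23284) whose mean reached 0.5 FPKM were tested with limma 3.58.1 in R 4.3.3 (eBayes with trend, 4 genotypes in one model, 12 residual degrees of freedom) on log2(FPKM + 0.1), a scale that understates changes of low genes. Adjusted p-values are Benjamini-Hochberg over all genes tested. Single genes were also compared by exact two-sided permutation tests in Python 3.11.15. The fit was tested on simulated data. The labels do not name the mouse behind each library, so p-values measure the spread between these samples, which may be technical in part. The 10 genes and the 6 pathway lists (91 genes) and 15 marker lists were chosen with earlier results of these data known. Genes were named by a rule: all 10, the targeted genes, the genes of each list called or with the 2 smallest F test p, and the 3 to 5 genes most alike each member of at least 1 FPKM. Replicate numbers did not pair the libraries. Alternatives were pseudocounts of 1 and 0.5, filters of none and of 2 FPKM, scaling by quantiles or by median ratios, a fit without trend, a sex covariate, replicate blocks, fits of the compared groups alone, unadjusted p-values and leaving out each library. Leaving out the 5 libraries highest in olfactory bulb markers, the block by column set and the unfiltered limma fit of Sp5 and Rnf43 were chosen after seeing the data.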

Additional observations from a re-analysis of the deposited data

Results flagged for a closer look

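In 4 of 40 groups of 4 libraries (10 genes in 4 genotypes), 1 library stood apart by Dixon's test at the 95% level, where chance gives 2. Lgr5 in APC cKOs had a gap of 0.840 of the group's range, with replicate 1 at 7.35 FPKM above 1.02 to 2.03 FPKM. Lgr5 in β-cat cOEs had a gap of 0.950, with replicate 1 at 5.17 FPKM above 1.77 to 1.94 FPKM. Both libraries were also the highest in olfactory bulb markers, at 153.6 and 163.4 FPKM summed. Notum in controls had a gap of 0.896, with replicate 1, the female control, at 0.93 FPKM below 1.21 to 1.24 FPKM. Apcdd1 in controls had a gap of 0.900, with replicate 2 at 9.26 FPKM below 13.6 to 14.1 FPKM.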

How the results depend on the processing

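In 202 counts under alternatives, the number of genes called at an adjusted p of 0.05 stayed at 0 in every comparison (of 8 tested, of 5 with the filter of 2 FPKM and of 10 with no filter), except with sex as a covariate, which called 1 (Ccnd1 in APC/β-cat cKO against control, 0.762, limma adjusted p = 0.0383; 49 of all genes called, against 29 without it), and at an unadjusted p. The unadjusted counts were 3 in APC cKO, 0 in β-cat cOE and 1 in APC/β-cat cKO against control, 2 and 1 in the first lines against the last, 2 between APC cKO and β-cat cOE, and 2 with raised β-cat against the rest. The count of 0 held without each library in turn and with a replicate block by title number or by column set. Same-numbered libraries did not deviate together (median r -0.07 over 21 pairs), so the numbers were not taken as pairs. The depth is unknown, so the precision of Sp5 and Rnf43, both under 1 FPKM in every library, could not be checked.

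Of 996 values of single genes under alternatives, 913 kept direction and side of the threshold and 72 changed sign, in 22 of 40 results. None of these results had a log2 change above 0.284 in size in the full data. For Sp5 in APC cKO, the log2 change was 1.325 to 1.501 without any 1 control library (exact permutation p = 0.0571) and 1.113 without the 5 libraries highest in olfactory bulb markers (exact permutation p = 0.200, with 3 against 2 libraries left). For Sp5 in β-cat cOE the exact permutation p was 0.0286 without replicate 3. All libraries then left in that line lay above all controls, so this p was fixed by the choice of library. For Rnf43 with raised β-cat against the rest the exact permutation p was 0.0455 without those 5 libraries. The causes of the changes below were not tested.

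With 1 library left out, log2 changes from control in APC cKO ran from -0.445 to 0.468 for Lgr5, -0.156 to 0.083 for Znrf3, -0.047 to 0.200 for Apcdd1 and -0.299 to 0.044 for Myc. In β-cat cOE they ran from -0.032 to 0.099 for Axin2, -0.232 to 0.375 for Lgr5, -0.134 to 0.105 for Znrf3, -0.230 to 0.067 for Apcdd1, -0.088 to 0.113 for Ccnd1, -0.087 to 0.137 for Myc and -0.187 to 0.183 for Rnf43. In APC/β-cat cKO they ran from -0.349 to 0.202 for Lgr5, -0.126 to 0.118 for Notum, -0.164 to 0.074 for Znrf3, -0.002 to 0.204 for Apcdd1, -0.241 to 0.205 for Myc and -0.205 to 0.166 for Rnf43. With raised β-cat against the rest they ran from -0.136 to 0.320 for Lgr5, -0.063 to 0.057 for Znrf3, -0.138 to 0.011 for Apcdd1 and -0.161 to 0.062 for Myc.

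Other settings that turned a direction were these. The replicate block by title number gave -0.017 for Apcdd1 in APC cKO. In β-cat cOE, sex as a covariate gave 0.10 for Ccnd1 and -0.041 for Myc, and quantile normalization gave -0.018 for Myc. In APC/β-cat cKO, sex as a covariate gave 0.080 for Lgr5 and 0.127 for Notum, and a pseudocount of 1 gave 0.001 for Notum and 0.002 for Myc. Median-of-ratios scaling gave 0.002 for Znrf3 with raised β-cat against the rest. Without the 5 libraries highest in olfactory bulb markers, Znrf3 was at 0.005, Sp5 at -0.007 and Rnf43 at 0.109 in β-cat cOE, Lgr5 at 0.297 in APC/β-cat cKO, and Znrf3 at 0.001 and Myc at 0.099 with raised β-cat against the rest.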
